A study of Homo sapiens with 6 samples.

Results

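The genes described here serve protein folding in the endoplasmic reticulum (ER), the unfolded protein response (UPR) and ER-associated degradation (ERAD). They were taken as a list of 49 symbols sorted by function. The list was drawn up with earlier results of these data known, so counts over it describe these genes and are no independent evidence. One symbol, VIMP, is an older name of SELENOS, which leaves 48 genes. Of these, 46 were matched through the platform annotation to 1 row each of the 23786 gene rows in the table. PDIA3 and TXNDC5 were not analysed here. HSC3 cells, a line derived from a human squamous carcinoma of the mouth, were grown in separate wells of 6-well plates. In the treated group 3 wells received 0.1 μM E7386 dissolved in dimethyl sulfoxide (DMSO), and in the control group 3 wells received DMSO alone at 0.1%. Treatment began 12 to 24 hours after seeding, at about 50% confluency, and RNA was collected 48 to 64 hours later. E7386 is a small molecule described as blocking the contact between β-catenin and the coactivator CREB-binding protein, and the comparison asks which transcripts differ between treated and solvent-treated cells.

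The ER folds the proteins that a cell secretes or places in membranes. When unfolded proteins accumulate there, the membrane sensors IRE1 (gene ERN1), ATF6 and PERK (gene EIF2AK3) release signals that raise the transcription of chaperones, oxidoreductases and degradation factors, which is the UPR. IRE1 acts by splicing the mRNA of XBP1 into the form that encodes an active transcription factor, and ATF6 is cut in the Golgi to free its transcription factor part. ERAD recognises proteins that fail to fold, moves them back through the ER membrane and hands them to the proteasome.

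Expression is given as a log2 RMA value, a brightness on the array made comparable between arrays, on which a difference of 1 is a 2-fold change. Differences are E7386 minus DMSO. A gene is called higher or lower at a limma p under 0.05 after Benjamini-Hochberg adjustment over all 23786 rows. All 6 arrays had medians between 3.74 and 3.79, and their correlation across genes was 0.992 to 0.995 within the groups and 0.982 to 0.985 across them. The labels call the wells biological replicates and describe separate wells, without naming separate experiments, so a p-value here rests on well-to-well spread alone, part of which may be technical. The squamous identity of the cells was visible in both groups: KRT5 averaged 10.85 ± 0.033 with E7386 and 11.64 ± 0.043 in DMSO (SD, n = 3 each). The 12 measured squamous markers, of 18 listed, averaged 8.03 to 8.14 in the E7386 wells and 8.33 to 8.38 in the DMSO wells, with 4 called lower, among them KRT14 and KRT5, and 1 called higher. Their part in the ER results was not tested. Of the markers of other cell types, 3 of 11 leukocyte, 2 of 11 fibroblast and 2 of 9 endothelial markers lay at or above the median row. They included CD68, a lysosomal protein of macrophages, at 9.03 with E7386 and 9.06 in DMSO. LAPTM5 averaged 4.14 with E7386 and 5.63 in DMSO, and COL1A1 5.30 with E7386 and 5.25 in DMSO. PTPRC was dim at 1.37 with E7386 and 1.20 in DMSO, as was PECAM1 at 1.46 in both. Averages in the E7386 wells and the DMSO wells were 2.94 to 3.03 and 3.20 to 3.23 for 11 leukocyte markers, 2.50 to 2.61 and 2.59 to 2.79 for 11 fibroblast markers, and 2.64 to 2.75 and 2.74 to 2.81 for 9 endothelial markers. In limma 1 leukocyte marker (LAPTM5) and 1 fibroblast marker were called lower and 0 endothelial markers were called, the last also at an unadjusted p under 0.05. All wells were seeded with the HSC3 line, so a lower marker here is no count of leukocytes or fibroblasts. In a whole-well extract, fewer cells expressing a gene and less RNA per cell cannot be told apart.

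Most of the listed ER folding, UPR and ERAD genes were higher with E7386. Of the 46 measured members 30 were called higher, 2 were called lower and 14 were not called. That is 65.2% higher and 4.35% lower, whereas 9.93% of all rows were called higher and 8.69% lower. Of the members, 43 lay at or above the level of the median row, where 18.2% of rows were called higher and 15.1% lower. The median difference over the members was 0.51, against -0.016 over all rows and 0.024 over the rows at or above the median row. In 33 members all 3 E7386 wells lay above all 3 DMSO wells, which held for 18.1% of all rows and 30.7% of rows at or above the median row. Averaged over the 46 members, the E7386 wells read 7.59, 7.62 and 7.62 and the DMSO wells 7.12, 7.15 and 7.10. Most changes were moderate: 24 of the 30 rises were at least 0.5 on the log2 scale and 4 were at least 2-fold, those of DNAJB9, HERPUD1, ERN1 and XBP1. These 4 were also the ones that passed limma's test against a minimum difference of 1.5-fold.

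**Figure D1:**
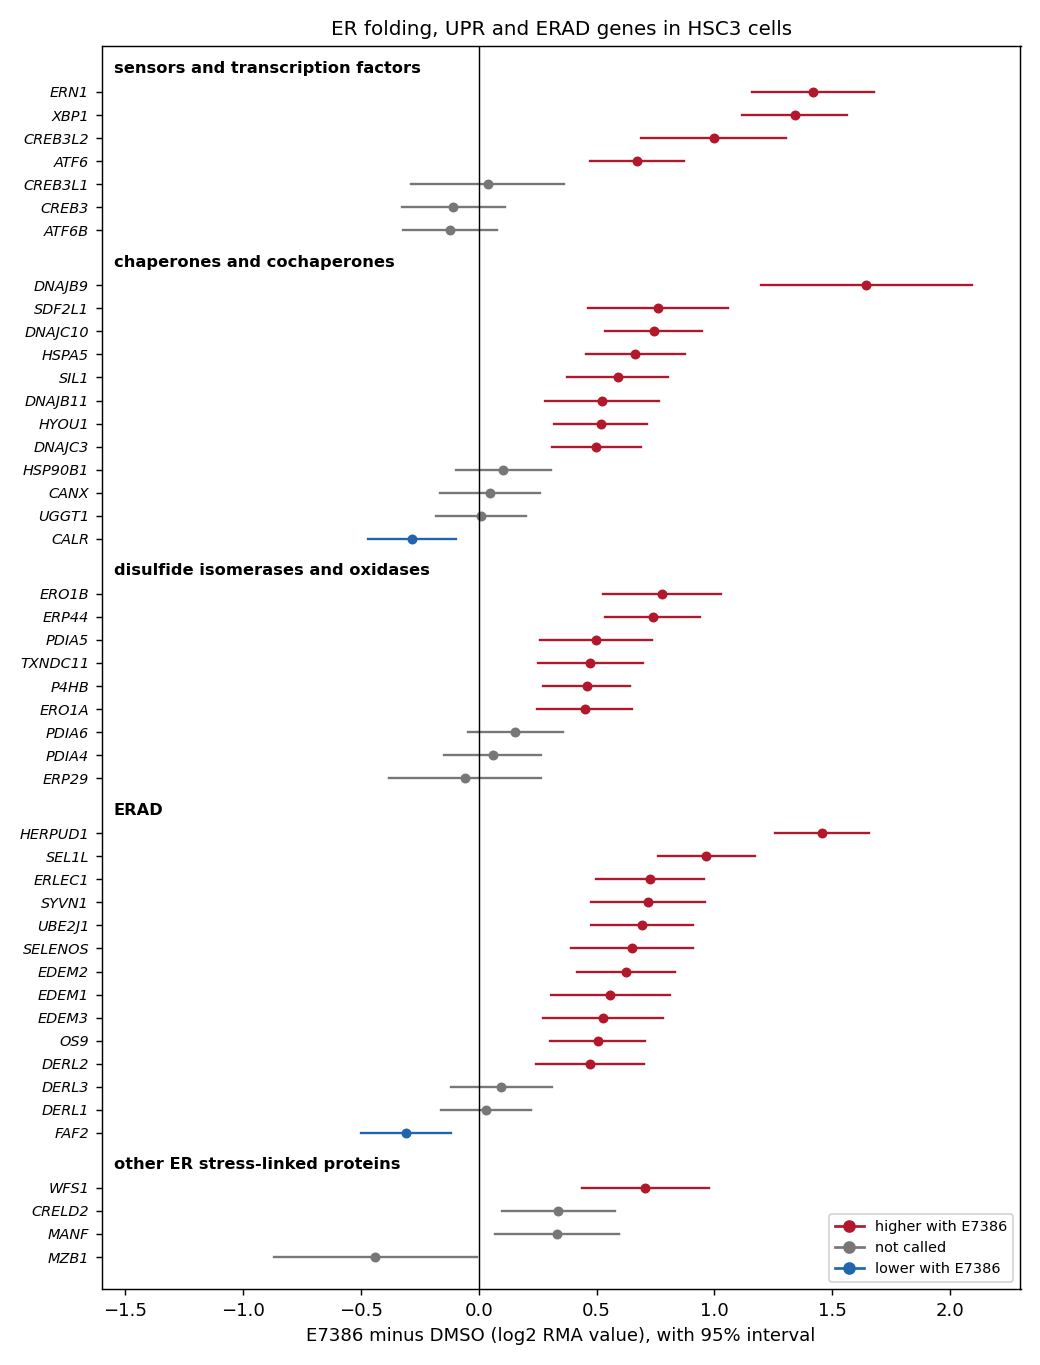
Difference between E7386 and DMSO in log2 RMA value (x axis) for each of the 46 measured members (y axis), grouped by function, with points for the estimate and lines for its 95% interval in limma. Red marks the 30 members called higher, blue the 2 called lower and grey the 14 not called; DNAJB9 at 1.65 stands farthest right.

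The rises were found in every functional class. Among ERAD factors 11 of 14 were higher and 1 was lower, among chaperones and cochaperones 8 of 12 were higher and 1 was lower, and among disulfide isomerases and oxidases 6 of 9 were higher. Of the sensors and transcription factors 4 of 7 were higher. In those 2 classes limma called 0 members lower, also at an unadjusted p under 0.05. The class medians were 0.59 for ERAD, 0.52 for the chaperones, 0.46 for the disulfide enzymes and 0.67 for the sensors. Differences between the classes were not tested.

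**Figure D2:**
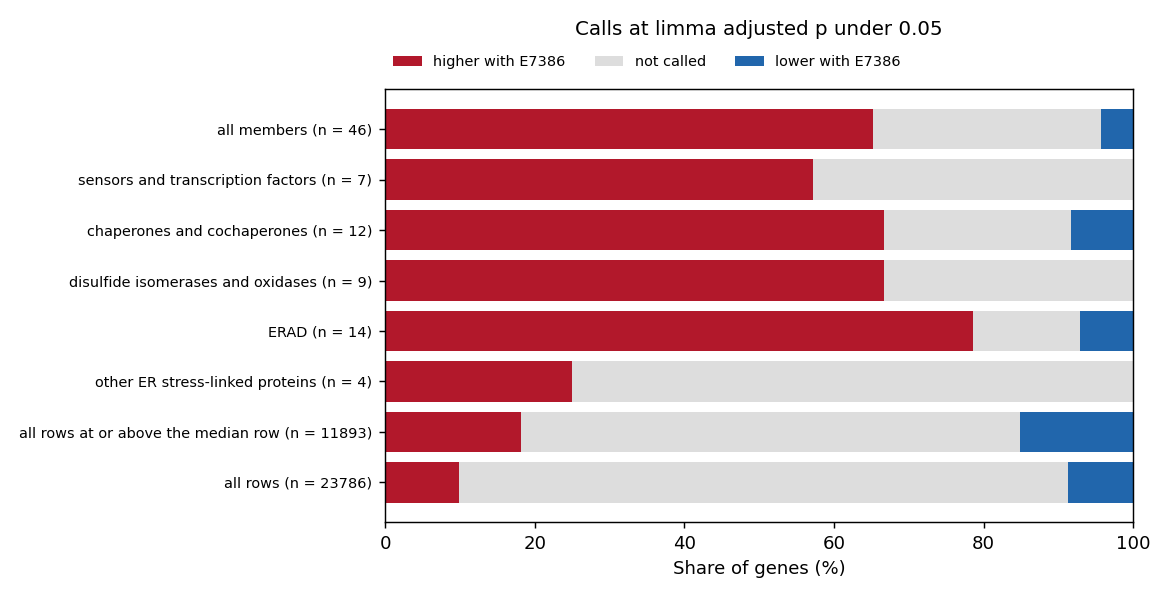
Share of genes in percent (x axis) called higher (red), lower (blue) or not called (grey) at a limma adjusted p under 0.05, for all members, each functional class and, as background, all rows of the table and those at or above the median row. The red share is 65.2% for the members, 18.2% for rows at or above the median row and 9.93% for all rows.

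Several of these genes carry known ER stress elements in their promoters, and 5 are shown to set members with such an element but different values side by side. Promoter sequences of RefSeq (build GRCh38.p14), from 250 bases before to 50 bases after each start site, were matched to 44 of the 46 members. The ER stress response element (ERSE) was searched on both strands as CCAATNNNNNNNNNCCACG, ERSE-II as ATTGGNCCACG, the core of the unfolded protein response element as TGACGTGG and one form of the element bound by ATF4 and C/EBP proteins as TGATGCAAT. ERSE was present in 8 of 44 members (18.2%) and in 25 of 27305 genes with a promoter (0.0916%). ERSE-II was in 3 members (6.82%) and 19 genes (0.0696%), and the UPRE core in 4 members (9.09%) and 253 genes (0.927%). TGATGCAAT was in 0 of 44 members and 80 genes (0.293%). The members were chosen as UPR and ER folding genes, so a higher share of ER stress elements than over all genes describes that choice. In HYOU1 the UPRE core overlapped one of the 2 ERSE-II matches. The lines that follow give a stretch of 150 bases upstream of the start site for 3 members that rose (HSPA5, XBP1 and HERPUD1), 1 that was not called (HSP90B1) and 1 that was called lower (CALR), 5′ to 3′ on the gene's strand. The stretch runs from 150 to 1 bases upstream in HSPA5, XBP1 and HERPUD1, from 204 to 55 in HSP90B1 and from 235 to 86 in CALR. Capitals mark the outer letters of ERSE in HSPA5, XBP1, HSP90B1 and CALR and of ERSE-II in HERPUD1.
HSPA5 (chr9:125241344-125241493, minus strand): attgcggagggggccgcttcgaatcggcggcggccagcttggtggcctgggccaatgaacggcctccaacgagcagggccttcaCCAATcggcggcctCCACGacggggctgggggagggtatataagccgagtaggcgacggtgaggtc
XBP1 (chr22:28800570-28800719, minus strand): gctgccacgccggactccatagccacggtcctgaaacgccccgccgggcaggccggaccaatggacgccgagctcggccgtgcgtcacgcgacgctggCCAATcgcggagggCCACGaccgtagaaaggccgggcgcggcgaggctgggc
HERPUD1 (chr16:56931992-56932141, plus strand): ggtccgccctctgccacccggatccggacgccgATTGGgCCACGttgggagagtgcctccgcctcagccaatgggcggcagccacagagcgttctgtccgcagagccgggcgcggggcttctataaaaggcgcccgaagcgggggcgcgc
HSP90B1 (chr12:103930206-103930355, plus strand): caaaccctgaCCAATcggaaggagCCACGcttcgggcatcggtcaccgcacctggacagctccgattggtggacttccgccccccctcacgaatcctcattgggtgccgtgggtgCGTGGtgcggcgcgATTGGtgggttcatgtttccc
CALR (chr19:12938374-12938523, plus strand): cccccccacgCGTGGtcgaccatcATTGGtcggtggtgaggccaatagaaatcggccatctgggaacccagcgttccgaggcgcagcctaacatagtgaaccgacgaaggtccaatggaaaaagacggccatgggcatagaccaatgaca

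The window of HSP90B1 holds 2 ERSE matches, 1 on each strand, and that of CALR holds 1 on the opposite strand. Of the 8 members with ERSE, HSPA5, XBP1 and ERO1B were higher, CALR was lower, and HSP90B1, CANX, PDIA6 and CRELD2 were not called. All 3 members with ERSE-II (HERPUD1, HYOU1 and SDF2L1) and all 4 with the UPRE core (DNAJC10, HYOU1, TXNDC11 and UBE2J1) were higher. Of all 46 members 65.2% were higher, and counts of 3 and 4 are too small to set against that share. The calls of other genes with the UPRE core were not examined. Over the 11 members with ERSE or ERSE-II the median difference was 0.52, with 6 higher and 1 lower. The 33 members with no exact match to either pattern also had a median of 0.52, with 24 higher and 1 lower. Copies with a changed letter, or outside the promoter stretch searched, were not counted. Whether these 33 members lack such elements was therefore not tested, and the equal medians do not show that the elements make no difference. A match of letters is a description of the sequence and not a binding measurement.

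Transcripts of the ER stress sensors ERN1 and ATF6 and of the transcription factor between IRE1 and its targets were higher. The third sensor, EIF2AK3, comes from another list and was higher too (0.50 ± 0.10). ERN1, the kinase and ribonuclease IRE1, read 5.12, 5.15 and 5.21 in the E7386 wells, against 3.93, 3.72 and 3.57 in the DMSO wells. The difference was 1.42 ± 0.11 (SE), a 2.68-fold rise (limma adjusted p = 0.00025). ERN1 lay at the level of the median row in DMSO, where RMA compresses differences, which leaves the fold uncertain. XBP1, the transcription factor whose mRNA IRE1 splices, read 9.30, 9.34 and 9.47 in the E7386 wells, against 8.10, 8.07 and 7.92 in the DMSO wells. It rose by 1.34 ± 0.096 (limma adjusted p = 0.00018), with every E7386 well above every DMSO well. The 1 value per gene does not separate the spliced from the unspliced form. ATF6 read 8.67, 8.74 and 8.75 in the E7386 wells, against 8.05, 8.12 and 7.97 in the DMSO wells. It rose by 0.67 ± 0.086, again without overlap of the groups. Its paralog ATF6B read 8.53, 8.47 and 8.58 in the E7386 wells, against 8.69, 8.57 and 8.69 in the DMSO wells. ATF6B was not called, at -0.12 with a 95% interval of -0.32 to 0.08.

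Among the CREB3 family, transcription factors of the ER membrane that are cut in the Golgi like ATF6, 1 of the 5 measured genes was called. CREB3L2, which in mice serves secretion by cartilage cells, read 6.27, 6.30 and 6.25 in the E7386 wells, against 5.34, 5.00 and 5.49 in the DMSO wells. Its rise was 1.00 ± 0.13 (limma adjusted p = 0.0024), and the E7386 wells lay close together while the DMSO wells spread. CREB3 read 6.97, 6.99 and 7.02 in the E7386 wells, against 7.18, 7.16 and 6.96 in the DMSO wells, and the groups overlapped (-0.11, limma adjusted p = 0.51). CREB3L1 was dim, at 2.55, 2.37 and 2.35 in the E7386 wells, against 2.10, 2.58 and 2.47 in the DMSO wells. No difference was detectable at that level (0.04, interval -0.29 to 0.36). CREB3L3 and CREB3L4, taken from the list of UPR signalling partners, lay just below the median row and differed by -0.04 (interval -0.37 to 0.30) and 0.002 (interval -0.28 to 0.29).

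**Figure D3:**
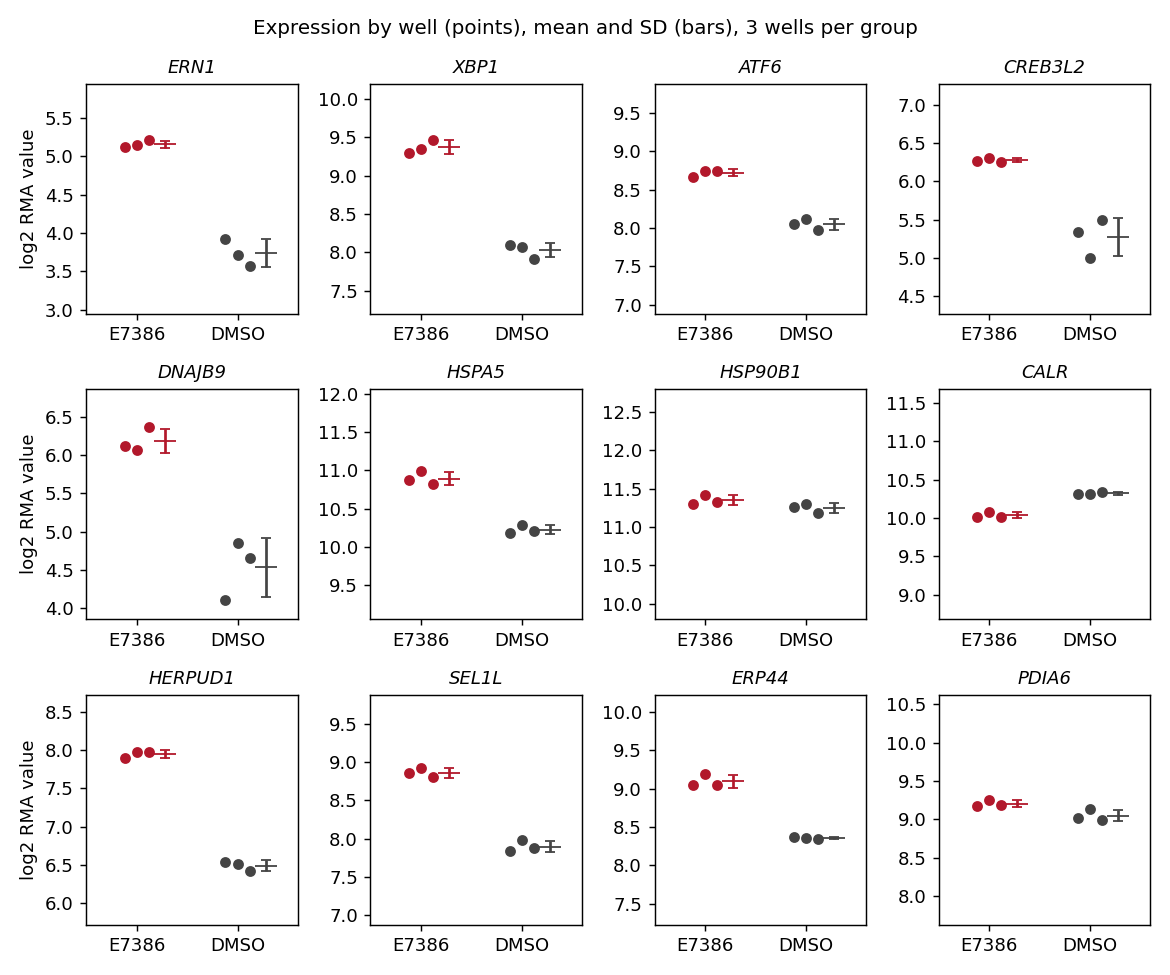
Log2 RMA value (y axis, each panel spanning 3 units) of 12 members in the 3 E7386 wells (red points, left) and the 3 DMSO wells (dark points, right), with bars for the mean and SD. The E7386 wells lie above all DMSO wells in ERN1, XBP1, ATF6, CREB3L2, DNAJB9, HSPA5, HERPUD1, SEL1L, ERP44 and PDIA6, below them in CALR, and overlap them in HSP90B1; PDIA6, HSP90B1 and CALR moved by less than 0.3.

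The Hsp70 chaperone of the ER and 7 of its partners among the listed genes were higher. PDIA6, a listed isomerase that also acts on BiP, was not called at 0.16 (limma adjusted p = 0.28). SEC63, a J-domain partner of BiP at the translocon that belongs to another list, was not called at 0.11 ± 0.089 (limma adjusted p = 0.46). HSPA5, the chaperone BiP, read 10.87, 10.99 and 10.82 in the E7386 wells, against 10.18, 10.29 and 10.21 in the DMSO wells. That is a rise of 0.66 ± 0.090, or 1.59-fold (limma adjusted p = 0.0025), in one of the brightest rows of the table. The 7 partners include the J-domain cochaperones, which hand clients to BiP, and the nucleotide exchange factors, which let BiP release them. DNAJB9, a cochaperone that also restrains IRE1, had the largest rise of all members and read 6.11, 6.07 and 6.36 in the E7386 wells, against 4.11, 4.85 and 4.65 in the DMSO wells. It rose by 1.65 ± 0.19, and its DMSO wells spread the most among the members (SD 0.38). DNAJC10, a cochaperone and disulfide reductase, read 8.92, 9.10 and 9.02 in the E7386 wells, against 8.24, 8.30 and 8.27 in the DMSO wells. It rose by 0.74 ± 0.087, and the groups lay well apart. DNAJB11 read 8.76, 8.91 and 8.88 in the E7386 wells, against 8.45, 8.17 and 8.36 in the DMSO wells. Its rise of 0.52 was not called without the second E7386 well (limma adjusted p = 0.051). DNAJC3, which also inhibits PERK, rose by 0.50 ± 0.081.

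Both exchange factors of BiP rose. SIL1 read 5.93, 6.00 and 6.07 in the E7386 wells, against 5.52, 5.36 and 5.35 in the DMSO wells, a difference of 0.59 ± 0.092. HYOU1, a large Hsp70 relative, read 7.94, 7.95 and 7.93 in the E7386 wells, against 7.33, 7.48 and 7.45 in the DMSO wells, a difference of 0.52 ± 0.084. SDF2L1, which works with DNAJB9 and DNAJB11 on BiP clients, read 6.81, 6.57 and 6.92 in the E7386 wells, against 6.18, 5.88 and 5.96 in the DMSO wells. It rose by 0.76 ± 0.13, and all 3 genes were without overlap between the groups.

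Of the 4 chaperones and glycoprotein folding factors outside the Hsp70 system, 0 were called higher, also at an unadjusted limma p under 0.05. HSP90B1, the ER Hsp90 known as GRP94, read 11.30, 11.42 and 11.33 in the E7386 wells, against 11.25, 11.30 and 11.18 in the DMSO wells. The wells overlapped, and the 95% interval of the difference, -0.10 to 0.31, leaves out the rise of HSPA5. CALR, the soluble lectin chaperone calreticulin, read 10.02, 10.08 and 10.02 in the E7386 wells, against 10.32, 10.31 and 10.34 in the DMSO wells. All E7386 wells lay below all DMSO wells, by 0.28 ± 0.080 on average (limma adjusted p = 0.046). That call was lost when any 1 of the 6 wells was left out (0.089 to 0.14). CANX, the membrane-bound lectin chaperone calnexin, differed by 0.05 (interval -0.16 to 0.26). UGGT1, the glucosyltransferase that returns unfolded glycoproteins to the lectin chaperones, differed by 0.01 (interval -0.18 to 0.20), with wells of both groups interleaved.

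Among the enzymes of disulfide bond formation, the oxidases and ERP44 rose while the classical isomerases were divided. ERO1A, the oxidase that recharges protein disulfide isomerase, rose by 0.45 ± 0.086. ERO1B, its paralog of professional secretory cells, read 4.52, 4.25 and 4.28 in the E7386 wells, against 3.49, 3.68 and 3.55 in the DMSO wells. It rose by 0.78 ± 0.11, starting just below the level of the median row, which leaves the fold uncertain. ERP44, which retains ERO1 enzymes in the early secretory pathway, read 9.04, 9.20 and 9.05 in the E7386 wells, against 8.37, 8.36 and 8.35 in the DMSO wells. The DMSO wells agreed within 0.011 (SD) and the rise was 0.74 ± 0.086 (limma adjusted p = 0.0014). P4HB, protein disulfide isomerase itself, rose by 0.46 ± 0.079, with means of 10.65 ± 0.018 with E7386 and 10.19 ± 0.028 in DMSO (SD, n = 3 each). PDIA5 and TXNDC11 rose by 0.50 and 0.47. Neither was called without the second E7386 well (limma adjusted p = 0.051 and 0.053), and PDIA5 was not called without the third either (0.055). PDIA6, an isomerase that acts on BiP and on IRE1, differed by 0.16 (limma adjusted p = 0.28). PDIA4 differed by 0.06 (interval -0.15 to 0.27). ERP29, a relative without the redox-active cysteine pair, differed by -0.06 with a wider interval of -0.38 to 0.26.

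HERPUD1, SYVN1, SEL1L and UBE2J1, which are among the listed genes of the HRD1 ubiquitin ligase complex, central to ERAD, were higher. The other listed ERAD factors, some of which also work with that complex, are taken up below. Among them DERL1 and DERL3 were not called and FAF2 was called lower. HERPUD1, a membrane protein that organises the ERAD ligase complex, read 7.89, 7.98 and 7.98 in the E7386 wells, against 6.54, 6.52 and 6.42 in the DMSO wells. It rose by 1.46 ± 0.085, or 2.75-fold (limma adjusted p = 9e-05), the smallest p among the members. SYVN1, the ubiquitin ligase HRD1, read 7.62, 7.63 and 7.66 in the E7386 wells, against 6.91, 6.76 and 7.08 in the DMSO wells. SEL1L, the adaptor that links HRD1 to its substrates, read 8.86, 8.93 and 8.80 in the E7386 wells, against 7.83, 7.98 and 7.88 in the DMSO wells. HRD1 and its adaptor rose by 0.72 ± 0.10 and 0.97 ± 0.088, without overlap of the groups. UBE2J1, the ubiquitin-conjugating enzyme of this complex, read 7.53, 7.74 and 7.62 in the E7386 wells, against 6.88, 6.97 and 6.96 in the DMSO wells. It rose by 0.69 ± 0.093.

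The EDEM proteins trim mannose from misfolded glycoproteins, and the lectins OS9 and ERLEC1 read the trimmed glycan. EDEM1 read 5.69, 5.87 and 5.72 in the E7386 wells, against 5.16, 5.36 and 5.07 in the DMSO wells. EDEM2 read 6.46, 6.40 and 6.55 in the E7386 wells, against 5.76, 5.88 and 5.88 in the DMSO wells. EDEM3 read 7.00, 6.97 and 7.02 in the E7386 wells, against 6.34, 6.67 and 6.39 in the DMSO wells. The 3 EDEM genes rose by 0.56 ± 0.11, 0.63 ± 0.088 and 0.53 ± 0.11, although EDEM3 was not called without the third E7386 well (limma adjusted p = 0.053). OS9 read 9.20, 9.07 and 9.11 in the E7386 wells, against 8.69, 8.58 and 8.60 in the DMSO wells. ERLEC1 read 8.21, 8.45 and 8.35 in the E7386 wells, against 7.54, 7.67 and 7.61 in the DMSO wells. Both lectins were higher in every E7386 well, by 0.51 ± 0.086 and 0.73 ± 0.097.

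The derlins form part of the channel through which ERAD substrates leave the ER. DERL2 rose by 0.47 ± 0.099, a call lost without the second E7386 well (limma adjusted p = 0.059). DERL1 averaged 9.53 ± 0.017 with E7386 and 9.50 ± 0.055 in DMSO (SD, n = 3 each) and was not called, with an interval of -0.16 to 0.22. DERL3 was dim at 3.28 with E7386 and 3.18 in DMSO and was not called. SELENOS and FAF2 recruit the extracting ATPase p97 to the membrane, and they were called in opposite directions. SELENOS read 8.22, 8.29 and 8.38 in the E7386 wells, against 7.73, 7.75 and 7.46 in the DMSO wells. It rose by 0.65 ± 0.11. FAF2 read 8.76, 8.77 and 8.72 in the E7386 wells, against 9.07, 9.11 and 8.99 in the DMSO wells. It fell by 0.31 ± 0.082 (limma adjusted p = 0.038), a call lost when any 1 of the 6 wells was left out (0.059 to 0.13).

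Of the 4 other proteins linked to ER stress, WFS1 was called. WFS1, an ER membrane protein mutated in Wolfram syndrome, read 6.34, 6.44 and 6.57 in the E7386 wells, against 5.70, 5.60 and 5.92 in the DMSO wells. Its rise was 0.71 ± 0.12, and each E7386 well exceeded each DMSO well. MANF, a secreted ER stress protein, read 6.73, 6.66 and 6.78 in the E7386 wells, against 6.51, 6.47 and 6.18 in the DMSO wells. CRELD2, another ER stress-induced secreted protein, read 6.33, 6.40 and 6.51 in the E7386 wells, against 5.99, 6.02 and 6.22 in the DMSO wells. In both the groups did not overlap, but the differences of 0.33 ± 0.11 and 0.34 ± 0.10 missed the threshold (limma adjusted p = 0.085 and 0.059). Both passed it when dim genes were left out (0.029 and 0.017). MZB1, an ER protein of antibody-secreting cells, was dim at 2.74 with E7386 and 3.18 in DMSO and was not called. The 8 plasma cell markers were dim too, averaging 2.10 to 2.26 in E7386 wells and 2.14 to 2.28 in DMSO wells. Of them limma called 0, and 2 had an unadjusted p under 0.05.

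For 5 pairs of related members, chosen after their values were seen to differ and therefore given without a test, the difference in log2 value between the members was formed in each well. The ATF6 minus ATF6B difference averaged 0.19 ± 0.069 in E7386 wells and -0.60 ± 0.14 in DMSO wells (SD, n = 3 each). HSPA5 minus HSP90B1 averaged -0.46 ± 0.047 with E7386 and -1.02 ± 0.053 in DMSO. DERL2 minus DERL1 averaged -0.46 ± 0.059 with E7386 and -0.90 ± 0.076 in DMSO. P4HB minus PDIA6 and ERO1B minus ERO1A shifted by less, by 0.30 and 0.33. In each pair the E7386 wells lay above the DMSO wells.

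Other genes of the same pathways were taken from lists based on general knowledge but drawn up with earlier results of these data known. Their shares describe these genes and are no independent evidence. Most of these genes lay at or above the median row, where 18.2% of rows were higher and 15.1% lower. Among 15 measured signalling partners of the UPR 5 were higher (33.3%) and 1 was lower (6.67%), with a median of -0.036. DDIT3, the transcription factor CHOP of the PERK branch, read 5.06, 5.59 and 5.56 in the E7386 wells, against 4.07, 4.26 and 4.08 in the DMSO wells. It rose by 1.27 ± 0.16 (limma adjusted p = 0.0017). EIF2AK3, the sensor PERK, rose by 0.50 ± 0.10. MBTPS2, the second of the 2 proteases that cut ATF6, rose by 0.46 ± 0.085. The first, MBTPS1, was not called at -0.25 ± 0.085, nor was ATF4, the PERK branch transcription factor, at -0.20 ± 0.10. TMBIM6, an ER membrane protein known as Bax inhibitor 1, fell by 0.43 ± 0.092.

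Entry into the ER was represented by 22 genes of the translocon, signal recognition and signal peptidase, of which 8 were higher (36.4%) and 1 was lower (4.55%), with a median of 0.14. SEC11C, a catalytic subunit of signal peptidase, read 6.32, 6.63 and 6.54 in the E7386 wells, against 4.54, 4.34 and 3.55 in the DMSO wells. The rise of 2.36 ± 0.24 began from scattered DMSO values. SRPRB, a subunit of the signal recognition particle receptor, rose by 1.08 ± 0.091, and TRAM1, a translocon-associated protein, by 0.58 ± 0.095. Among 10 genes of glycan trimming and ER lectins 7 were higher (70%, median 0.41), led by CLGN at 1.33, LMAN1, a cargo receptor, at 0.71 and PRKCSH, the glucosidase II β subunit, at 0.67. CLGN lay below the median row, and its fold is uncertain. Of 8 prolyl isomerases 4 were higher (50%, median 0.41), with FKBP11 at 1.37 ± 0.12, FKBP14 at 0.59 and FKBP9 at 0.51.

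In the list of further thioredoxin-fold and peroxidase proteins 4 of 19 were higher (21.1%) and 1 was lower (5.26%), with a median of 0.067. The share higher was near that of rows at or above the median row. AGR2, an isomerase relative of mucus-secreting cells, read 6.05, 6.36 and 6.15 in the E7386 wells, against 3.14, 3.60 and 2.46 in the DMSO wells. It rose by 3.12 ± 0.26, from DMSO values that were scattered and all below the median row. SELENOM, a selenoprotein of the ER, rose by 1.18, and ERP27, a binding partner of PDIA3, fell by 0.88 at a level below the median row. Of 30 further ERAD and extraction factors 9 were higher (30%) and 4 were lower (13.3%), with a median of 0.17. The share lower was near the 15.1% of rows at or above the median row. The ubiquitination factors UBE2J2, UBE2K, RNF5, RNF139, MARCHF6, TRIM13 and TMEM129 were not called, with differences between -0.31 (TRIM13) and 0.28 (UBE2J2). FOXRED2, a flavoprotein of ERAD, read 7.26, 7.26 and 7.21 in the E7386 wells, against 6.17, 6.13 and 6.26 in the DMSO wells. It rose by 1.06 ± 0.084, and AUP1, which recruits a ubiquitin-conjugating enzyme, by 0.77 ± 0.091. TMUB2 rose by 0.74 ± 0.098. VCP, the ATPase p97 itself, read 9.27, 9.27 and 9.18 in the E7386 wells, against 9.76, 9.88 and 9.84 in the DMSO wells. It fell by 0.59 ± 0.085 (limma adjusted p = 0.0034). Its cofactor NPLOC4 fell by 0.42 ± 0.086, and UFD1, the partner of NPLOC4, was not called at -0.07 ± 0.094. Of 9 ER-phagy receptors 1 was higher (11.1%), RETREG2, by 0.46 ± 0.082. The share was 9.93% over all rows and 18.2% over rows at or above the median row, where 8 of the 9 lay. CCPG1, a receptor induced by ER stress, read 3.70, 2.39 and 3.18 in the E7386 wells, against 2.72, 1.20 and 1.18 in the DMSO wells. Its difference of 1.39 ± 0.47 was not called, with dim and widely spread wells (limma adjusted p = 0.088).

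**Figure D4:**
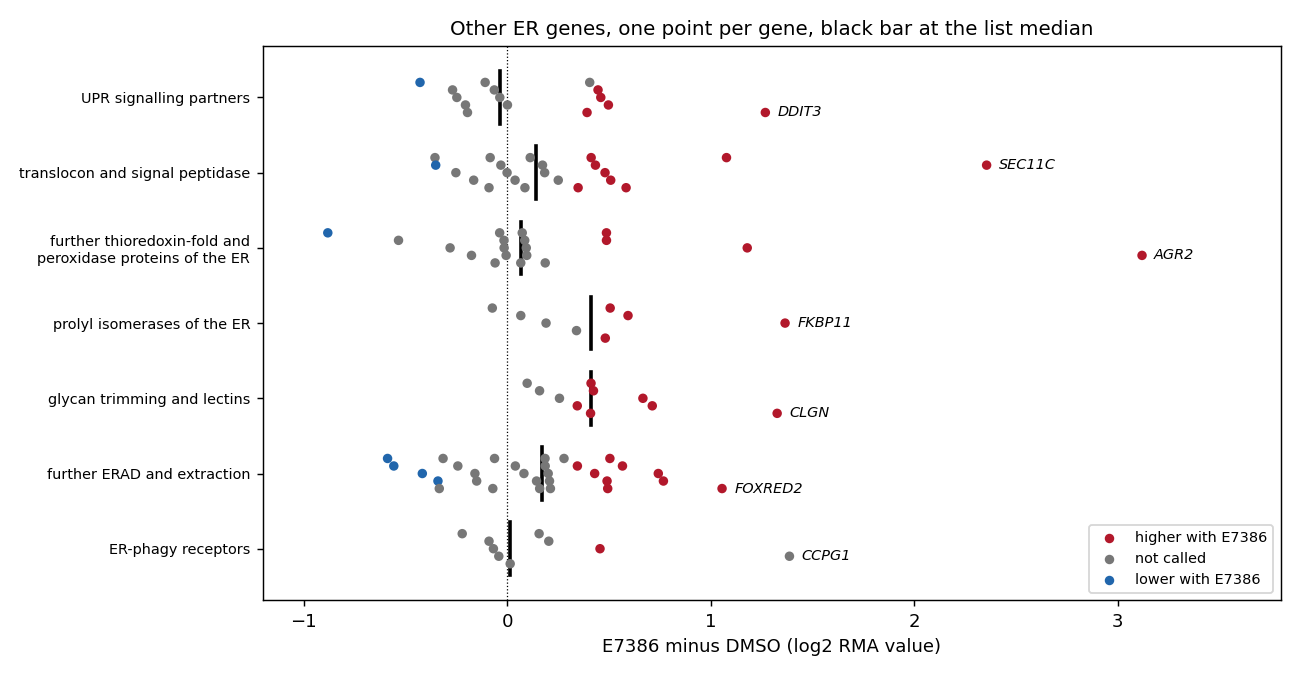
Difference between E7386 and DMSO in log2 RMA value (x axis) for the measured genes of 7 further ER lists (y axis), one point per gene, red for higher, blue for lower and grey for not called, with a black bar at the list median. The medians lie between -0.036 for the UPR signalling partners and 0.41 for the prolyl isomerases and the glycan trimming list, and AGR2 stands farthest right at 3.12.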

How the data were processed

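RNA from 3 E7386 wells and 3 DMSO wells was amplified, biotin-labelled and hybridised to 1 array per well, per the labels' protocols. The deposited files hold log2 values, which the authors computed by RMA with affy 1.36.1, per the submitters' processing notes. RMA equalises the distributions of the arrays, so a change in total RNA per cell leaves no trace, and it compresses the differences of dim genes. The sources used here do not give the probe set definition. Values ran from 0.343 to 12.0, and the number of arrays limits the precision. All 23786 rows entered 1 linear model of treatment in limma 3.58.1 (R 4.3.3), with two-sided p-values, Benjamini-Hochberg adjustment over all rows and moderated 95% intervals. The code was tested on simulated data. Symbols came from the platform annotation, which names 22458 rows, and promoters from RefSeq tables.

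The members and gene lists were chosen with earlier results of these data known. Values by well are given for all sensors, for members called with a difference of at least 0.5 and for those called lower. Of the remaining members up to 4 per class, those with the largest differences, serve as examples. Of each further ER list up to 3 called genes are named, with EIF2AK3, MBTPS1, MBTPS2, ATF4, DDIT3 and VCP always included. Outside these rules, and after their values were seen, PDIA4, PDIA6, ERP29, TMBIM6, NPLOC4, UFD1, CCPG1, SEC63, CREB3L3, CREB3L4, CD68, COL1A1 and 7 uncalled ubiquitination factors were given values, HSP90B1, MANF and CRELD2 were given by well, and the genes in the closing section were chosen. Each result was recomputed after a second quantile normalization, after median centring, without rows below the median row, with an intensity trend and robust prior, with array weights, with a replicate block, against a 1.5-fold minimum, and without each well in turn.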

Additional observations from a re-analysis of the deposited data

How the results depend on the processing

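The count of members called higher was 30, and 30 to 32 with a second quantile normalization, median centring, dim genes left out, an intensity trend, array weights or the replicate block. It was 26 to 31 with any 1 well left out, lowest without the second E7386 well, and 4 against a 1.5-fold minimum. The count called lower was 2 (CALR and FAF2), 1 after median centring, 0 with any 1 well left out, 0 with the replicate block and 0 against a 1.5-fold minimum. The members' median difference of 0.51 ranged from 0.49 to 0.52 with a well left out. Over all genes 2363 were called higher and 2067 lower, 1534 to 1978 and 1373 to 1657 with a well left out, and 194 and 228 against a 1.5-fold minimum. The lowest of these counts, 1534 and 1373, were those without the third E7386 well. With the replicate block 30 members were higher and 0 lower. The block changed no other call of a member. Deviations of same-numbered wells correlated at 0.051, 0.12 and -0.0077, and those of differently numbered wells at -0.098 to 0.041. The numbers were not taken as pairs, and these values do not settle whether they carry a pairing. With a well left out, 3 uncalled members changed sign. CREB3L1 ranged from -0.10 (without the first DMSO well) to 0.13, and was -0.024 without the first E7386 well. UGGT1 ranged from -0.011 (without the second DMSO well) to 0.035, and was -0.0093 without the first E7386 well. ERP29 ranged from -0.16 to 0.081 (without the second DMSO well). The cause of these shifts was not tested. Dim members (CREB3L1, DERL3, MZB1) lie below the median row, where a change could be compressed.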

Other observations

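Outside the genes listed, 33 genes carried ERSE or ERSE-II in their promoter, and 24 of them had a named row. Among these 24 limma called 2 higher (8.33%) and 3 lower (12.5%), with a median difference of -0.0034. Over all rows 9.93% were higher and 8.69% lower. Most of the 24 lay above the median row, where 18.2% of rows were higher and 15.1% lower. SERP1, which stabilises membrane proteins at the translocon, averaged 9.78 with E7386 and 8.62 in DMSO and rose by 1.16 ± 0.11 (SE, limma adjusted p = 0.000508). FICD, the enzyme that attaches AMP to BiP, averaged 4.75 with E7386 and 3.99 in DMSO and rose by 0.76 ± 0.13 (limma adjusted p = 0.00653). The 3 that were lower were SHCBP1 at -1.16 ± 0.11, RUVBL2 at -0.77 ± 0.096 and ZNF143 at -0.50 ± 0.11.

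Within the groups, the first E7386 well gave the lowest of the 3 E7386 values in 25 of the 46 members, and the third DMSO well the lowest DMSO value in 21. These orders were not counted over all rows, so a trait of the members and one of the arrays cannot be told apart. The median SD over the members was 0.069 in E7386 wells and 0.077 in DMSO wells. Over all rows it was 0.12 in E7386 wells and 0.14 in DMSO wells. Of the 46 members 43 lay at or above the median row, and the SD of rows at that level was not summarised. A trait of the members and one of their level therefore cannot be told apart.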
